A study of Mus musculus with 60 samples.

Results

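The genes described here are 10 genes of the transforming growth factor beta (TGF-beta) pathway, taken by name from the 47729 mouse genes measured in single PyMT-Bo1 tumor cells. They were the ligands Tgfb1, Tgfb2 and Tgfb3, the receptors Tgfbr1, Tgfbr2 and Tgfbr3, the signal transducers Smad2 and Smad3, and Smad7 and Skil, which restrain the pathway and are themselves switched on by it. They are a list of names, without a cut on any value, but the list was drawn up with earlier results of these data known. They were compared between tumor cells that had kept the membrane dye DiD (DiD+, dormant) and cells that had lost it by dividing (DiD-, proliferative).

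PyMT-Bo1 cells come from a mouse mammary tumor and here carried luciferase, a nuclear H2B-mApple label and surface Thy1.1. All cells of both groups were stained with DiD, injected into the left heart of female wild-type C57BL6 mice and harvested 11 days later from the digested femurs and tibias, so both groups share the line, its transgenes and the host. Thy1.1-enriched cells free of CD45 and DAPI were sorted 1 per well by DiD intensity, which gave 32 DiD+ and 28 DiD- cells, each called here by the number in their labels. The bones of 5 mice were pooled and no label ties a cell to a mouse, so a group counts as 1 sample, the differences could not be checked in replicates, and the groups were not tested against each other.

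TGF-beta ligands are made as latent dimers, held in the matrix by binding proteins and released by integrins or proteases. The active ligand binds the type II receptor TGFBR2, which recruits and phosphorylates the type I receptor TGFBR1, and this kinase phosphorylates SMAD2 and SMAD3, which join SMAD4 and enter the nucleus. The pathway is known for its growth arrest of epithelial cells, for driving matrix and invasion genes in advanced tumors, and, in bone, where the mineralized matrix stores latent TGF-beta, for bone metastasis and for the dormancy of disseminated cells.

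Tgfb1 and Tgfb2 stood at opposite ends of the ligands, with counts in 58 of the 60 cells for Tgfb1 and in 4 for Tgfb2, so the 250 bases upstream of each start are shown (RefSeq, GRCm38.p6, each on the strand of its gene). The Tgfb1 stretch is chr7:25686752-25687001 (plus strand) and the Tgfb2 stretch chr1:186705990-186706239 (minus strand). Capitals mark 3 motifs searched on both strands, the SMAD-binding CAGAC, the GC box GGGCGG and the TATA box TATAAA, which did not overlap in these windows.
Tgfb1: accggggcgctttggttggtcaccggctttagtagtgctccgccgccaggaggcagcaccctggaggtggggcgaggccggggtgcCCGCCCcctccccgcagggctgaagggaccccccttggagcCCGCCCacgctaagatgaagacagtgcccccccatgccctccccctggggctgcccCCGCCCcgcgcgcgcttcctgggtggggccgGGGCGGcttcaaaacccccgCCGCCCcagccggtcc
Tgfb2: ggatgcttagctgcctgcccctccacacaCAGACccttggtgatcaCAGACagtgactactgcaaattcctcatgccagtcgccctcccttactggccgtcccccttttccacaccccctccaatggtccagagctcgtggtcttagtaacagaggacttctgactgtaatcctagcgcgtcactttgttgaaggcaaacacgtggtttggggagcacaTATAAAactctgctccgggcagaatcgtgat
The Tgfb1 stretch held 5 GC boxes, no CAGAC and no TATAAA, with 21 CG dinucleotides and 75.2% G or C. The Tgfb2 stretch held 2 CAGAC, 1 TATAAA and no GC box, with 8 CG dinucleotides and 53.6% G or C. Of the 32851 upstream windows of this length in the RefSeq table, 42.2% held CAGAC, 32.7% GGGCGG and 12.4% TATAAA, and the median window had 6 CG dinucleotides and 52.4% G or C. A match describes the letters and is not evidence of binding. Among the other genes, a window was at hand for Tgfbr1, Tgfbr2 and Smad3. The windows of Smad3 and of the first Tgfbr1 start had 2 GC boxes each and neither of the other motifs, that of Tgfbr2 had 1 CAGAC alone, and that of a second, downstream Tgfbr1 start had 1 CAGAC alone.

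Depth was similar in both groups, at 2276789 to 7794219 counts a cell in DiD+ and 2624405 to 6199108 in DiD-. Expression is given in CPM, the counts of a gene per 1000000 counts on mouse genes, over the counts summed within a group unless a cell is named. Intervals are exact at 95%, Poisson for CPM, binomial for a ratio of counts and Clopper-Pearson for a share of cells, and since reads without molecular identifiers are not independent molecules, they cover counting error only. A count of 0 over a whole group allows up to 3 counts, or 0.0205 CPM in DiD+ and 0.0251 CPM in DiD-. Keratins were found among the epithelial markers. Krt8, a luminal keratin, reached 10 counts in 32 of 32 DiD+ and 28 of 28 DiD- cells and Krt18 in 29 and 28, whereas the epithelial markers Epcam and Cdh1 had 0 and 1 counts in all 60 cells together. The keratins were lower in DiD+, with medians over cells of 1693 against 3042 CPM for Krt8 and 455 against 1295 CPM for Krt18. Markers of host cells were found in some wells, although CD45-positive cells had been gated out. At least 7 of 13 macrophage markers reached 10 counts in 6 DiD+ wells (cells 19, 21, 24, 30, 37 and 88) and 1 DiD- well (cell 84), and the summed level of the list ran from 0 to 19747 CPM over DiD+ cells (median 44.5) and from 0 to 1716 CPM over DiD- cells (median 21.3). Markers of erythroid, neutrophil or platelet origin passed the same mark in 3 other wells, cell 29 of DiD+ and cells 44 and 86 of DiD-, which brings the wells with RNA of another cell type to 7 in DiD+ and 3 in DiD-. Values without these wells are given beside the main results, and the part of host RNA was not tested further.

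No TGF-beta gene that reached 1 CPM in either group differed 2-fold between the groups. On the log2(CPM + 1) scale, 0 of the 9 such genes were 2-fold higher in DiD+ cells and 0 were 2-fold lower. Of the 12432 genes at that level, 12.1% and 4.86% were. All 9 genes also reached 10 CPM in a group. Of the 8814 genes at 10 CPM, 6.38% and 3.18% were, 49.5% were higher in DiD+, and the upper quartile was 0.32. Among only 9 genes, a count of 0 is not far from any of these shares. In the rest of this paragraph, all genes are the 12432. Taking DiD+ over DiD-, the log2 ratio had a median of 0.27 over the 9 genes and of 0.043 over all genes, with 7 of the 9 higher in DiD+ (53.2% of all genes were) and 2 lower, or 5 and 4 when cells were scaled by their ERCC spike-ins, RNAs added in equal amount to each well. That scaling moved the median of all genes from 0.043 to -0.34 and that of the 9 genes from 0.27 to 0.15. Under each of 6 scalings 7 of the 9 genes lay above the median of all genes. The sums and their TMM and DESeq2 versions differ by a constant per group, which moves all genes nearly alike, so they are not separate checks. Without the wells with RNA of any other cell type, 6 of the 9 genes lay above that median. The 4 highest ratios belonged to Tgfbr1 (0.89), Smad3 (0.72), Smad7 (0.63) and Skil (0.57), all above the upper quartile of all genes (0.46), and the 2 below 0 to Smad2 (-0.24) and Tgfb1 (-0.069). By the median cell in place of the sum, 5 of the 10 genes were higher in DiD+, 4 were lower (Tgfb1, Tgfbr2, Smad2 and Skil) and Tgfb2 was at 0 in both groups. Every gene had cells at 0 counts in both groups, so the groups overlapped for each of them.

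**Figure D1:**
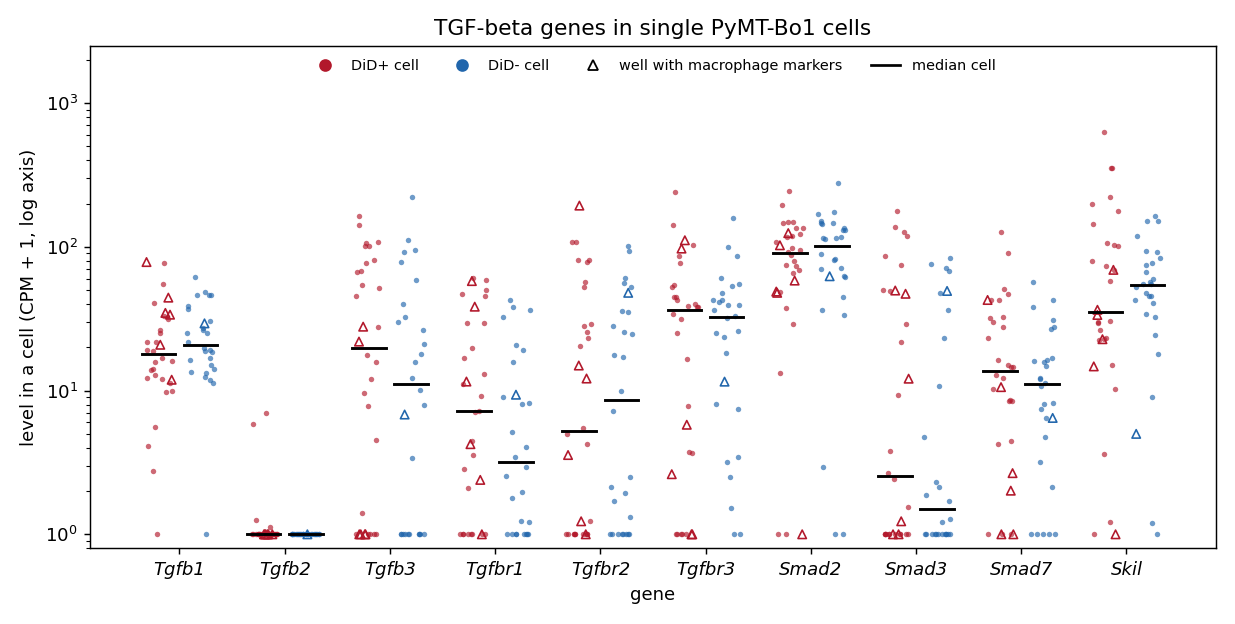
Level of the 10 genes in each of the 60 cells, as CPM + 1 on a log axis, with DiD+ cells in red, DiD- cells in blue, triangles for the 7 wells with macrophage markers and a black bar at the median cell of each group. The groups overlap for every gene; the median Skil cell is lower in DiD+ (34.03 CPM) than in DiD- (53.0 CPM) although 6 DiD+ cells lie above every DiD- cell.

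**Figure D2:**
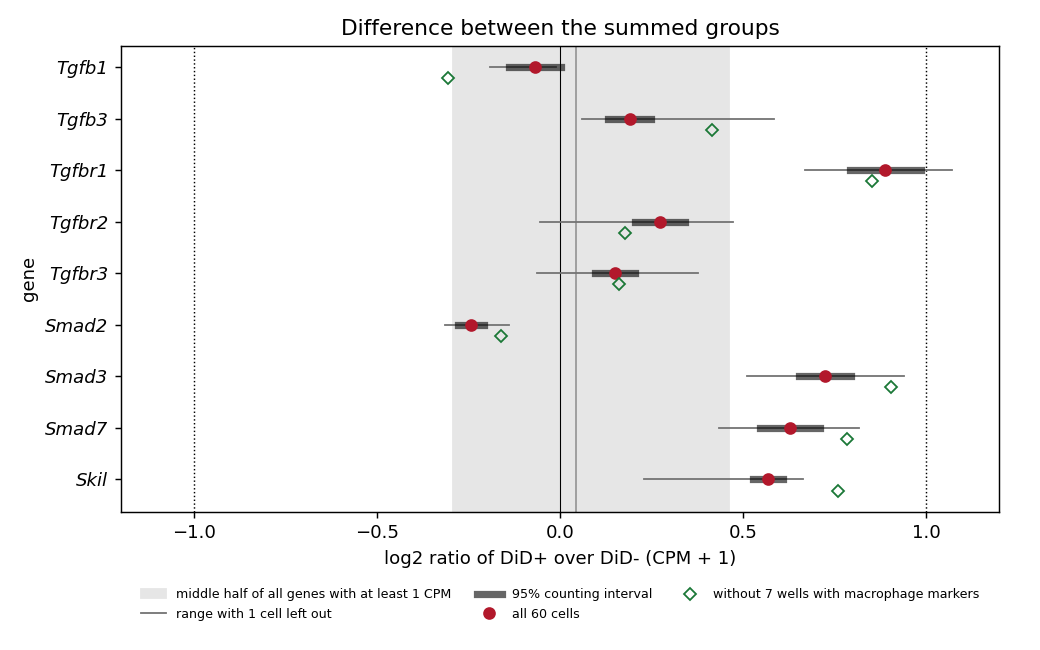
Log2 ratio of DiD+ over DiD- for the 9 genes at 1 CPM or more, from counts summed in each group (red), with the 95% counting interval (thick bar), the range when 1 cell is left out (thin line) and the value without the 7 wells with macrophage markers (green diamond). Shading spans the quartiles of all genes (-0.29 to 0.46) and dotted lines mark a 2-fold difference; Tgfbr1, Smad3, Smad7 and Skil lie above the shading and no red point passes the dotted lines.

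Tgfb1, the ligand most widely made by tumor and immune cells, was carried by nearly all cells (ENSMUSG00000002603, chr7:25687002-25705077 in GRCm38, plus strand). Its level in CPM was similar in both groups. Counts were found in 31 of 32 DiD+ and 27 of 28 DiD- cells. Over DiD+ cells the level ran from 0 to 77.4 CPM with a median of 16.9, and over DiD- cells from 0 to 60.3 with a median of 19.9. The summed levels were 22.1 CPM (21.4 to 22.9) and 23.2 CPM (22.4 to 24.1), or a ratio on the log2 scale of -0.069 (-0.14 to 0.00). With spike-in scaling the Tgfb1 ratio was -0.60, beside -0.34 for the median of all genes. The highest cell of all was cell 37, a well with macrophage markers. The 6 macrophage-marker wells of DiD+ held 32.97% of the group's Tgfb1 counts at 36.5 CPM, against 18.5 CPM in the other 26 cells. Without the 7 such wells the log2 ratio was -0.31, so the lower level in DiD+ cells was larger once these wells were left out.

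Tgfb2, a ligand tied in other systems to the quiescence of disseminated cells in bone marrow, was nearly absent (ENSMUSG00000039239, chr1:186622792-186705989, minus strand). It had 48 counts in DiD+ and 0 in DiD-. Of these, 24 were in cell 41, 22 in cell 68, and 1 each in cells 23 and 82, and none of the 4 was a macrophage-marker well. The share of cells with a count was thus 12.5% (3.51% to 28.99%) in DiD+, and 0 of 28 cells in DiD-, for which the exact upper limit is 12.3% (10.7% by the limit of 3 counts). Set against the limit of 3 counts over the DiD- group, the summed level of 0.329 CPM was at least 13.1-fold higher in DiD+, a difference that rested on cells 41 and 68. Both of these cells had under 10 counts of Krt18, which 29 of 32 DiD+ cells reached, although both reached 10 counts of Krt8. The summed level stayed below 1 CPM, so Tgfb2 entered no median of the list's ratios and no count of 2-fold differences, and 124 bases of its exons overlap an antisense gene (Gm29491) whose reads cannot be told apart without strand.

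Tgfb3, the ligand with prominent roles in palate and mammary gland development, was found in fewer cells than Tgfb1 (ENSMUSG00000021253, chr12:86056745-86079041, minus strand). It had counts in 23 DiD+ and 18 DiD- cells. Levels ran from 0 to 164 CPM in DiD+ (median 18.8) and from 0 to 220.4 CPM in DiD- (median 10.1). Summed levels were 37.05 CPM (36.1 to 38.1) and 32.3 CPM (31.3 to 33.4), or a ratio on the log2 scale of 0.19 (0.13 to 0.25). The DiD- level rested in part on cell 34, which held 27.7% of that group's Tgfb3 counts. The ratio was 0.58 without cell 34 and 0.060 without DiD+ cell 68, and it was -0.033 with spike-in scaling. Tgfb3 was also low in macrophage-marker wells, at 7.79 CPM in the 6 DiD+ wells against 44.3 CPM in the other 26 cells. The ratio was 0.42 without the 7 wells and 0.29 without wells of any other cell type. Part of its exons, 420 bases, overlaps antisense genes (Gm37804 and Gm48008).

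Of the receptors, Tgfbr1 differed most between the groups, while Tgfbr2 and Tgfbr3 lay within the quartiles of all genes. Tgfbr1 encodes the type I receptor kinase that phosphorylates SMAD2 and SMAD3 (ENSMUSG00000007613, chr4:47353222-47414931, plus strand). Its level over cells ran from 0 to 60.04 CPM in DiD+ (median 6.17) and from 0 to 41.5 CPM in DiD- (median 2.17). The summed levels were 16.5 CPM (15.8 to 17.1) and 8.44 CPM (7.92 to 8.97), or a ratio on the log2 scale of 0.89 (0.79 to 0.99). Although 6 DiD+ cells lay above the highest DiD- cell, the shares of cells with a count were close, at 71.9% (53.3% to 86.3%) and 71.4% (51.3% to 86.8%). The 2-fold mark was passed only when DiD- cell 33, 39, 44 or 65 was left out, with 1.07 without cell 39 at the most, and the ratio was 0.67 without DiD+ cell 82 and 0.85 without the macrophage-marker wells.

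Tgfbr2 encodes the type II receptor that binds the ligand first (ENSMUSG00000032440, chr9:116084293-116175360, minus strand). Levels ran from 0 to 193 CPM in DiD+ (median 4.26) and from 0 to 101 CPM in DiD- (median 7.55), and counts were present in 21 and 20 cells. The summed and median levels thus pointed in opposite directions. By sums the levels were 26.7 CPM (25.9 to 27.6) and 21.96 CPM (21.1 to 22.8), or a ratio on the log2 scale of 0.27 (0.20 to 0.34). Cell 37, a macrophage-marker well, alone held 926 counts, or 23.7% of the DiD+ total, and the ratio was -0.056 without it. The ratio was also -0.020 without the 10 wells holding RNA of any other cell type, and 0.18 without the macrophage-marker wells. The direction of the Tgfbr2 difference thus turned with the wells that were included.

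Tgfbr3 encodes betaglycan, a coreceptor that presents ligands, TGF-beta 2 above all, to TGFBR2 (ENSMUSG00000029287, chr5:107106570-107289629, minus strand). It was at 0 to 241 CPM in DiD+ cells (median 35.2) and 0 to 159 CPM in DiD- cells (median 31.6), with counts in 25 and 26 cells. The summed levels of 41.4 CPM (40.3 to 42.4) and 37.2 CPM (36.1 to 38.3) gave a log2 ratio of 0.15 (0.10 to 0.21). The ratio was -0.064 without DiD+ cell 69, which held the highest level of all cells, and 0.38 without DiD- cell 26. It also turned to -0.24 with spike-in scaling, so its direction held neither across cells nor across scalings. A same-strand gene, Gm43422, overlaps 297 bases of its exons.

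The receptor-regulated SMADs lay on opposite sides of a ratio of 0. Smad2 was carried by most cells in both groups (ENSMUSG00000024563, chr18:76241580-76310963, plus strand), at 0 to 244 CPM in DiD+ (median 89.4, 29 cells with a count) and 0 to 276 CPM in DiD- (median 99.7, 26 cells). Its summed levels were 85.9 CPM (84.4 to 87.4) and 102 CPM (100.1 to 104), or a ratio on the log2 scale of -0.24 (-0.28 to -0.21). The ratio stayed below 0 with any 1 cell left out (-0.31 to -0.14) and with other wells left out (-0.16 without the macrophage-marker wells). With spike-in scaling it was -0.57. Smad3, the transducer that itself binds DNA, was in contrast found in 19 DiD+ and 16 DiD- cells (ENSMUSG00000032402, chr9:63646767-63757994, minus strand), at 0 to 175 CPM in DiD+ (median 1.55) and 0 to 82.7 CPM in DiD- (median 0.489). Summed levels were 30.2 CPM (29.3 to 31.1) and 17.9 CPM (17.1 to 18.6), or a ratio on the log2 scale of 0.72 (0.65 to 0.80). The typical cell of both groups thus had almost no Smad3, and 4 DiD+ and 3 DiD- cells held 50% of each group's counts. In DiD+, 5 cells exceeded the highest DiD- cell. The ratio was 0.51 without cell 75, the highest DiD+ cell. It was 0.90 without the macrophage-marker wells and 0.66 without wells of any other cell type. Cell 29, which carried platelet markers, was second highest for Smad3 (136 CPM).

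Smad7 and Skil are direct targets of SMAD signaling that feed back on it. Smad7, which blocks the type I receptor and brings ubiquitin ligases to it, ran from 0 to 126 CPM in DiD+ cells (median 12.7) and from 0 to 55.9 CPM in DiD- cells (median 10.1), with counts in 27 and 23 cells (ENSMUSG00000025880, chr18:75367529-75395935, plus strand). The summed levels were 21.98 CPM (21.2 to 22.8) and 13.9 CPM (13.2 to 14.6), or a ratio on the log2 scale of 0.63 (0.55 to 0.71). Only 2 DiD+ cells, 29 and 36, exceeded the highest DiD- cell. The ratio was 0.43 without cell 29, which carried platelet markers. It was 0.79 without the macrophage-marker wells and 0.55 without wells of any other cell type. With spike-in scaling it was 0.31.

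Skil encodes SnoN, a corepressor that holds SMAD complexes silent until it is degraded (ENSMUSG00000027660, chr3:31095058-31122577, plus strand). Its level ran from 0 to 626 CPM in DiD+ cells with a median of 34.03, and from 0 to 163 CPM in DiD- cells with a median of 53.0. Summed levels were 89.4 CPM (87.9 to 90.9) and 59.9 CPM (58.5 to 61.3), or a ratio on the log2 scale of 0.57 (0.53 to 0.61). The median DiD+ cell was therefore lower, and the summed DiD+ level higher, than in DiD-. A few DiD+ cells carried the sum. Cell 36 had 626 CPM, cells 43 and 81 had 354 and 353 CPM, cell 17 had 222 CPM, and it took these 4 cells to reach 50% of the DiD+ counts but 7 cells in DiD-. Without cell 36 the ratio was 0.23, and with spike-in scaling it was 0.28. The macrophage-marker wells of DiD+ were at 29.6 CPM against 104 CPM in the other 26 cells, and the ratio without the 7 wells was 0.76.

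Shares of cells with a count had overlapping intervals between the groups for each gene. Between 1 count and 10 counts as the mark, Tgfb1, Smad2 and Skil were found in 29 to 31 of 32 DiD+ and 25 to 27 of 28 DiD- cells. The median share over the 10 genes was 75% in DiD+ and 76.8% in DiD-. The most distant pair of shares was that of Tgfbr3, at 78.1% (60.03% to 90.7%) in DiD+ and 92.9% (76.5% to 99.1%) in DiD-. At a mark of 10 counts, Smad3 was found in 16 of 32 DiD+ cells and 10 of 28 DiD- cells, against 19 and 16 cells at 1 count. After 2200000 counts had been drawn from each cell to equalize depth, the number of cells with a count was lower by at most 2 for any gene in either group. A DiD+ cell carried 3 to 10 of the 10 genes and a DiD- cell 3 to 9, with a median of 7 in both.

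**Figure D3:**
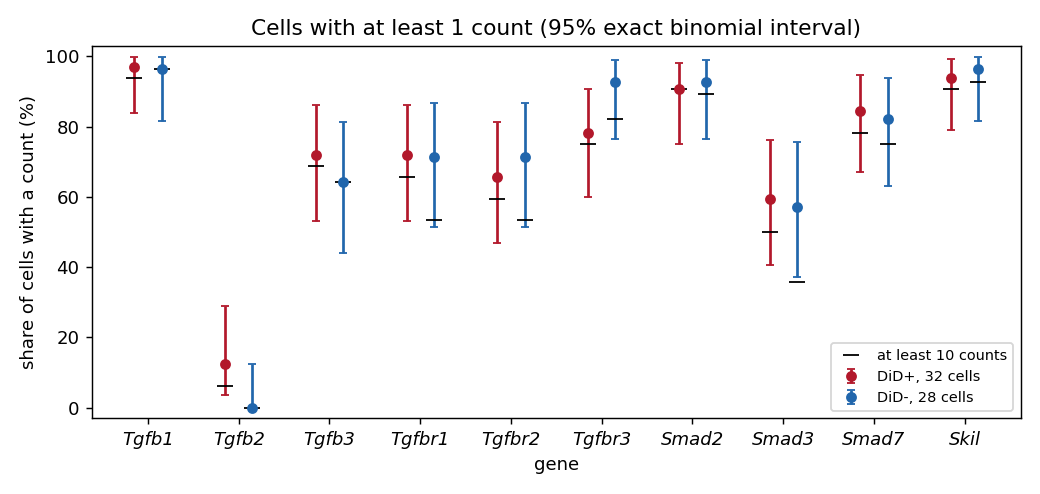
Share of the 32 DiD+ (red) and 28 DiD- (blue) cells with at least 1 count of each gene, in percent, with exact 95% binomial intervals, and a black dash for the share with at least 10 counts. Intervals of the groups overlap for every gene, and Tgfb2 is the only gene under 20% in DiD+ and the only one at 0 in DiD-.

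Signaling needs both receptor chains, and the messages of both were often not found in the same cell. Each was also missing from some cells on its own, with Tgfbr1 found in 23 DiD+ and 20 DiD- cells and Tgfbr2 in 21 and 20. Whether the 2 occurred together more or less often than these single shares give was not tested. Tgfbr1 and Tgfbr2 were both present in 14 of 32 DiD+ cells (43.8%, 26.4% to 62.3%) and 15 of 28 DiD- cells (53.6%, 33.9% to 72.5%), and both were missing in 2 and 3 cells. Tgfb1 was found together with both receptors in 14 DiD+ cells and 14 DiD- cells. Smad2 and Smad3 were both found in 17 and 15 cells, Tgfb1 and Tgfb3 in 22 and 18, and the feedback genes Smad7 and Skil in 25 and 22. A count of 0 in a single cell is a limit of detection, and depth after amplification does not show that a message was absent.

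Scaled to the length of the exons of a gene, the levels of the 10 genes stood in nearly the same order in both groups. In DiD+ the order by summed CPM per kilobase of exon was Tgfb3 (10.95), Smad2 (9.78), Skil (9.22), Tgfbr3 (6.32), Smad3 (5.44), Smad7 (4.86), Tgfb1 (4.39), Tgfbr2 (3.27), Tgfbr1 (2.52) and Tgfb2 (0.0567). In DiD- it was Smad2 (11.6), Tgfb3 (9.56), Skil (6.18), Tgfbr3 (5.68), Tgfb1 (4.61), Smad3 (3.22), Smad7 (3.07), Tgfbr2 (2.68), Tgfbr1 (1.29) and Tgfb2 (0). The quartile ranges over cells of every pair of neighbors in both orders overlapped. For Tgfb2, with both quartiles at 0, this came only from a lower quartile of 0 for Tgfbr1, so the overlap cannot judge that step. No step above it stood clear of the spread between cells.

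**Figure D4:**
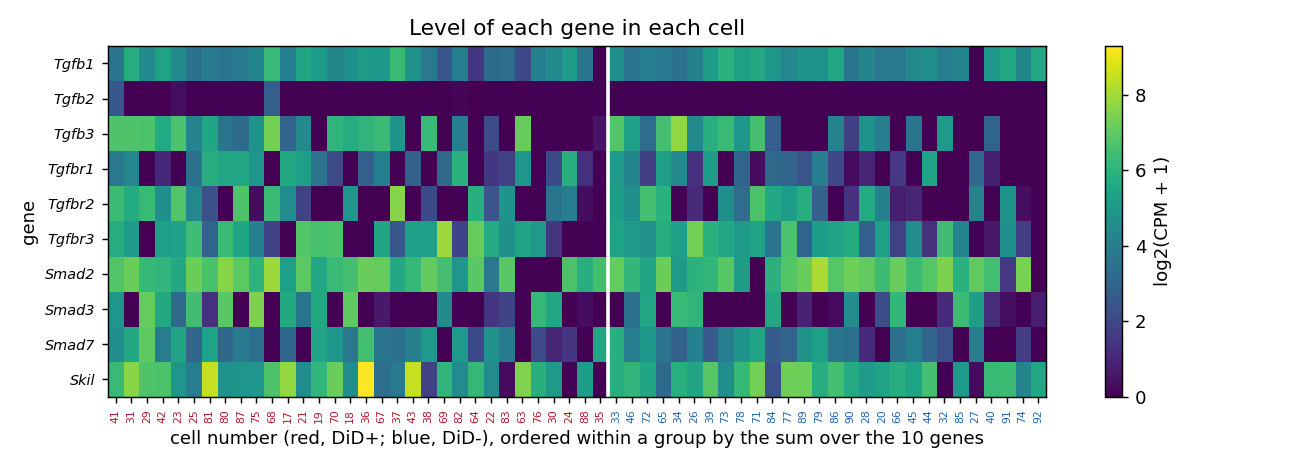
Level of the 10 genes (rows) in each of the 60 cells (columns) as log2(CPM + 1), with DiD+ cells left of the white line and DiD- cells right of it, ordered within a group by the sum over the genes. Smad2, Tgfb1 and Skil are lit in nearly all columns, Smad3 and both receptor kinases in a patchwork, and Tgfb2 in 4 DiD+ cells.

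Levels of the genes were weakly related across the 60 cells of both groups pooled. Over the 60 cells, the Spearman correlation of log2(CPM + 1) between the 36 pairs of the 9 genes ran from -0.27 (Tgfb1 with Smad3) to 0.32 (Tgfb3 with Smad7), with a median of 0.062. Within DiD- the range was wider, from -0.53 (Tgfb1 with Smad3) to 0.57 (Tgfb3 with Tgfbr3). These pairs were at -0.018 and -0.018 in DiD+. Within DiD+ the range was -0.27 (Tgfbr1 with Tgfbr2) to 0.30 (Tgfb3 with Smad2), and these pairs were at 0.16 and -0.15 in DiD-. The difference between the groups was not tested. The 3 cells described next were chosen after their values were seen, each for being high in several of the genes. Cell 36 was highest of all 60 for Skil (626 CPM) and second for Smad7 (89.3 CPM). It was also highest for the cyclin-dependent kinase inhibitor Cdkn1a (2501 CPM), the ligand-processing protease Furin (140.4 CPM) and the osteolytic cytokine Il11 (79.7 CPM). Yet it had no count of Tgfbr2, Tgfbr3 or Smad3. Cell 29 was highest for Smad7 (126 CPM), second for Smad3 (136 CPM) and highest for the early-response factors Klf10 (2392 CPM) and Bhlhe40 (5674 CPM). It carried platelet markers and had no count of Tgfbr1 or Tgfbr3. Cell 68 was highest for Tgfb2 (5.97 CPM), second for Tgfb1 (75.7 CPM), Tgfb3 (164 CPM) and Smad2 (244 CPM), and highest for the inhibitory Smad6 (51.8 CPM). It had no count of Tgfbr1, Smad3 or Smad7.

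The genes most like each gene in their pattern over the 60 cells were taken from all genes found in at least 20 cells at 10 CPM or more in a group. The nearest was Csrnp1 for Smad7 (Spearman rho 0.59), followed by Spty2d1 (0.55) and Hbegf (0.55). Rubcn led for Tgfbr1 (0.56), Dnaja1 for Skil (0.55), Gm10698 for Tgfb3 (0.54), Mark3 for Tgfbr2 (0.51), Trmt5 for Smad2 (0.49), Usp28 for Tgfb1 (0.47) and Birc2 for Smad3 (0.47). The matrix protease Mmp14 was among the first 3 for Tgfb3 (0.49), fibronectin (Fn1) for Tgfbr3 (0.49), the cytokine suppressor Socs1 for Tgfbr2 (0.49) and the chaperone Dnajb1 for Skil (0.48). These are the highest of 8380 values for each gene, over cells that differ in depth and group, and are a description only. No gene of the 10 was among the first 3 of another.

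Other genes of the pathway were followed in 6 lists of 56 genes in all. Of all genes at 1 CPM or more, 53.2% were higher in DiD+, 12.1% at least 2-fold higher and 4.86% at least 2-fold lower. These shares stand beside the counts of each list. Storage and release of latent ligand was covered by 12 genes, 9 of them with at least 1 CPM, with a median log2 ratio of 0.14, 6 higher and 3 lower in DiD+. The median was -0.17 with spike-in scaling, which put 3 higher and 6 lower, 0.030 without the macrophage-marker wells and -0.00787 without wells of any other cell type. Of the 9, 3 were at least 2-fold higher, beside 12.1% of all genes. The latent TGF-beta binding protein Ltbp1 had the most counts of the list and was lower in DiD+, at 542 against 728 CPM (-0.42). Thrombospondin 1 (Thbs1), which releases active ligand from the latent complex, was at 60.3 against 16.7 CPM (1.79), with a median DiD+ cell of 0.184 CPM and counts in 16 DiD+ and 8 DiD- cells. The ratio of Thbs1 was 1.84 without the macrophage-marker wells, 1.503 without wells of any other cell type and 1.53 without DiD+ cell 87. It was 2.80 without DiD- cell 34, which held 55.2% of the DiD- counts. Cell 29, the DiD+ well with platelet markers, was second highest of the 60 cells for Thbs1 (389 CPM). Nrros, which anchors latent TGF-beta on myeloid cells and microglia, reached 11.8 CPM in DiD+ and had 0 counts in DiD-, and all of its counts lay in 4 macrophage-marker wells, 58.2% of them in cell 24. The matrix proteoglycan Dcn, a ligand trap, was the other 2-fold higher gene, below 10 CPM at 3.59 CPM in 4 DiD+ cells against a single count in DiD-. The integrin subunit Itgb6 had no count in any cell.

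The next list held the coreceptors and adaptors with SMAD4, with 7 of 7 genes at 1 CPM, a median of 0.26, and 4 higher and 3 lower. The median was -0.22 with spike-in scaling, which put 1 higher and 6 lower, -0.059 without the macrophage-marker wells and -0.0964 without wells of any other cell type. Fkbp1a (FKBP12), which keeps the unbound type I receptor inactive, had the most counts, at 581 against 798 CPM (-0.46), and Smad4, the partner of SMAD2 and SMAD3, was at 134 against 172 CPM (-0.36). Both lay in the same direction as Smad2, and both were found in at least 27 of 28 DiD- and in all 32 DiD+ cells. The endothelial type I receptor Acvrl1 was the 1 gene of 7 that was 2-fold higher, beside 12.1% of all genes. It was at 3.74 against 1.34 CPM, and its DiD+ counts lay wholly in 3 macrophage-marker wells. Its log2 ratio was 1.02 over all cells, 0.068 without cell 37, -0.035 with spike-in scaling and -1.25 without the macrophage-marker wells, and DiD- cell 26 held all DiD- counts.

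The inhibitors had 9 of 9 genes at 1 CPM, a median of 0.43, and 6 higher and 3 lower. With spike-in scaling the median was -0.056, with 4 higher and 5 lower. The homeodomain corepressor Tgif1 had the most counts, at 116 against 97.4 CPM (0.25, and -0.18 with spike-in scaling). Smurf2, a ubiquitin ligase that works with SMAD7 to remove receptors and SMADs, was the 1 gene of 9 that was 2-fold higher, beside 12.1% of all genes. It was at 27.4 against 12.4 CPM (1.09), with a ratio of 1.36 without the macrophage-marker wells, 0.79 without DiD+ cell 69 and 0.68 with spike-in scaling. As for Skil, the medians went the other way, with 1.02 CPM in the median DiD+ cell and 9.23 CPM in the median DiD- cell. The SKIL relative Ski was at 40.9 against 22.7 CPM (0.82). Its ratio was 0.58 without the macrophage-marker wells, which held 32.1% of its DiD+ counts, and 0.39 with spike-in scaling. Pmepa1 and Bambi, a pair of feedback inhibitors induced by the pathway, were at 60.3 against 65.3 CPM (-0.11) and 7.02 against 10.4 CPM (-0.50). Without the macrophage-marker wells their ratios were -0.38 and -0.43.

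The activin arm, which signals through the same SMAD2 and SMAD3, had 5 of 7 genes at 1 CPM, a median of 0.33 (-0.065 without DiD+ cell 70), 3 higher and 2 lower. The activin subunit Inhba had the most counts, at 28.3 against 39.2 CPM (-0.45). Follistatin (Fst), which traps activin, was at 11.2 against 1.68 CPM (2.19), in 7 and 2 cells, none of the 7 a macrophage-marker well. DiD- cell 26 held 63.7% of the DiD- counts of Fst and DiD+ cell 82 held 35.8% of the DiD+ counts, and the ratio was 2.90 and 1.68 without each. Inhbb, at 2.59 CPM and 0 counts, was found in 3 DiD+ cells, and 54.2% of its counts lay in cell 29.

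Genes that TGF-beta is known to induce lay on both sides, with 14 of 17 at 1 CPM, a median of 0.48, 10 higher and 4 lower. Fibronectin (Fn1) had the most counts, at 2796 against 1858 CPM (0.59). The growth inhibitor Cdkn1a (p21) was at 688 against 364 CPM (0.91), and the transcription factor Snai2 at 14.5 against 5.82 CPM (1.18), in 15 and 10 cells. The Snai2 ratio was below the 2-fold mark without DiD+ cell 80 (0.97) and with spike-in scaling (0.58). The matrix proteins Ccn2 and Tgfbi were at 132 against 144 CPM (-0.13) and 221 against 281 CPM (-0.35). For Ccn2, DiD- cell 32 held 44.1% of the DiD- counts, the ratio was 0.64 without it, and the median cell was at 71.3 CPM in DiD+ against 21.2 CPM in DiD-. In the opposite direction, Pthlh, which encodes the parathyroid hormone-related protein that breast tumor cells release in bone, was at 15.2 against 73.8 CPM (-2.21), with a median cell of 0 CPM in DiD+ and 25.8 CPM in DiD- and counts in 14 of 32 and 21 of 28 cells. It was the 1 gene of the 6 lists at least 2-fold lower in DiD+, and its ratio was -2.64 without the macrophage-marker wells and between -2.51 and -1.81 with any 1 cell left out. Below 10 CPM, Col1a1 and Il11 were also 2-fold higher, in 3 and 2 DiD+ cells, but neither was without 1 cell. The Col1a1 ratio, with 0 counts in DiD- and so set by the added 1 CPM, was 1.49, and 0.59 without cell 31 (72.8% of its counts), and the Il11 ratio was 1.91, and 0.42 without cell 36 (84.7% of its DiD+ counts).

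The 4 genes that TGF-beta is known to repress in epithelial cells, Myc, Id1, Id2 and Id3, were all higher in DiD+ under each of the 6 scalings, with a median of 0.95. Id3, an inhibitor of differentiation that BMP signals also induce, had the most counts, at 1198 against 481 CPM (1.31). Its median cell had 781 CPM in DiD+ against 349.6 CPM in DiD-, and the ratio was 1.55 without the macrophage-marker wells. Id2 was at 164 against 40.6 CPM (1.99), but the 6 macrophage-marker wells held 50.4% of its DiD+ counts and the ratio without the 7 wells was 1.31. Myc was at 100.7 against 66.8 CPM (0.58) and Id1 at 106 against 80.05 CPM (0.40), of which cell 35 held 33.6% of the DiD+ counts, and the Id1 ratio was -0.13 without it. Among all genes that reached 10 CPM in either group, 6.38% were 2-fold higher and 3.18% 2-fold lower in DiD+, and of the 6 lists Nrros, Thbs1, Smurf2, Fst, Snai2, Id2 and Id3 were such genes on the higher side and Pthlh on the lower.

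**Figure D5:**
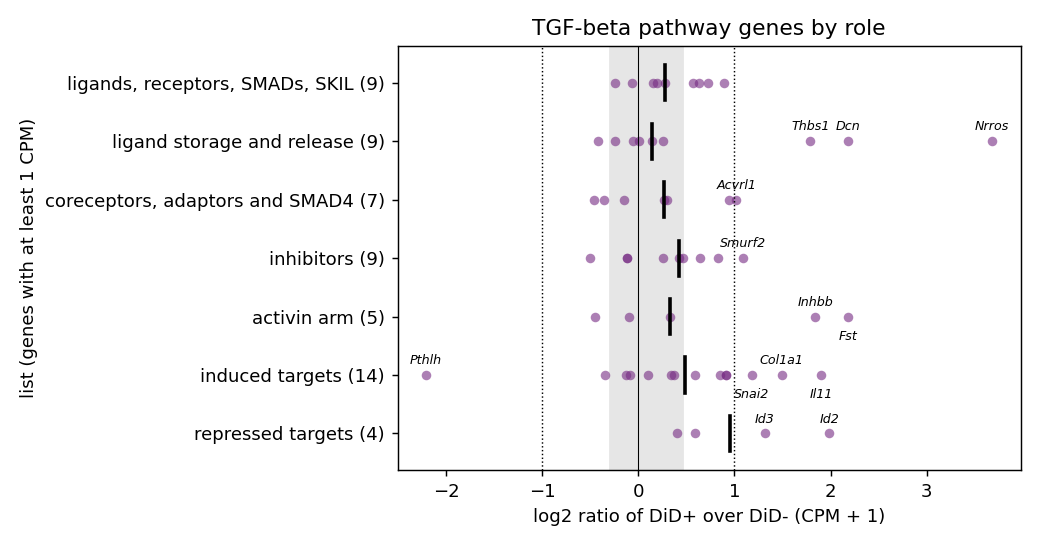
Log2 ratio of DiD+ over DiD- for each gene at 1 CPM or more in either group, by role in the pathway, with the number of genes in parentheses, a black bar at the median and names for genes past a 2-fold difference (dotted lines). Shading spans the quartiles of all genes; medians run from 0.14 for ligand storage and release to 0.95 for the repressed targets, and Pthlh lies apart at -2.21.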

How the data were processed

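Single-cell cDNA was made with a full-length SMARTer kit and Nextera XT libraries, which do not mark strand. Per the study's methods, the authors aligned trimmed reads with STAR to GRCm38/mm10 supplemented with ERCC and transgene sequences, and deposited RSEM expected counts for each gene and cell, which were rounded here (96.6% were whole as deposited). The authors also deposited a BASiCS-normalized signal table (for mouse genes, the rounded counts divided by 1 factor per cell), used only as an alternative scaling. All 60 columns were matched to cells.

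Counts on 47729 mouse genes were summed per group. Log2 ratios took a pseudocount of 1 CPM, and lists took genes that reached 1 CPM in either group. Shares of cells were repeated after thinning to 2200000 counts. A well was said to hold another cell type where at least 50% of a marker list reached 10 counts, and no cell was removed from the main values. Doublets were not called. Positions and exon lengths came from GENCODE M21, and upstream sequence from RefSeq (GRCm38.p6), which matched 5 of the 10 genes. All 10 genes were described, with pathway genes at least 2-fold different at 10 CPM or more and the gene with the highest CPM of each list, and the 3 most alike genes over cells. The 10 genes and the lists were chosen with earlier results of these data known. Alternatives were the mean over cells, BASiCS values, ERCC scaling, edgeR (4.0.16) TMM and DESeq2 (1.42.0) factors, pseudocounts of 0.1 and 10, no minimum or 10 CPM, wells left out, and each cell left out. The summed log2 ratio and its counting interval were tested on simulated Poisson counts, which lack the spread between real cells. The other steps were not simulated. Python 3.11.15 with scipy 1.17.1 and R 4.3.3 were used. The instrument and read length differ between the labels and the methods. A few items that the rule would name are not reported here.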

Additional observations from a re-analysis of the deposited data

How the results depend on the processing

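The number of TGF-beta genes 2-fold higher in DiD+ was 0 and of those 2-fold lower 0 under all 11 alternatives. With 1 cell left out the first was 0 to 1 and the second 0. These counts could not include Tgfb2, which a minimum of 1 CPM or more left out. With no minimum, the pseudocount of 1 CPM held the Tgfb2 ratio at 0.41. The median log2 ratio of the 9 genes (0.27) was 0.39 by the mean over cells, 0.38 by BASiCS values, 0.15 by spike-ins, 0.20 with a pseudocount of 10 CPM, 0.42 without the macrophage-marker wells, and 0.16 to 0.57 with 1 cell left out. Ligand storage and release (0.14) gave 0.11 by the mean over cells, 0.0553 by BASiCS, -0.17 by spike-ins, 0.11 by DESeq2 factors, 0.0719 with no minimum, 0.0719 at a minimum of 10 CPM, 0.030 without the macrophage-marker wells, -0.00787 without wells of any other type, and 0.038 to 0.20 with 1 cell left out. Coreceptors, adaptors and SMAD4 (0.26) gave -0.22 by spike-ins, 0.0575 with a pseudocount of 10 CPM, -0.047 at 10 CPM, -0.059 and -0.10 without the wells, and 0.029 to 0.38 with 1 cell left out. The inhibitors (0.43) gave -0.056 by spike-ins, 0.23 with a pseudocount of 10 CPM, 0.34 at 10 CPM, 0.36 without wells of any other type, and 0.29 to 0.56 with 1 cell left out. The activin arm (0.33) gave 0.50 by the mean over cells, 0.52 by BASiCS, 0.10 with a pseudocount of 10 CPM, 0.13 with no minimum, 0.87 at 10 CPM, and -0.065 (without DiD+ cell 70) to 1.05 (without DiD- cell 71) with 1 cell left out. The induced targets (0.48) gave 0.53 by the mean over cells, 0.21 by spike-ins, 0.46 by TMM, 0.45 by DESeq2 factors, 0.29 with a pseudocount of 10 CPM, 0.34 with no minimum, 0.36 at 10 CPM, 0.41 and 0.35 without the wells, and 0.33 to 0.64 with 1 cell left out. The repressed targets (0.95) gave 0.66 by spike-ins, 0.92 by DESeq2 factors, 0.91 with a pseudocount of 10 CPM, 1.06 and 1.03 without the wells, and 0.81 to 1.08 with 1 cell left out. Single genes turned sign for Tgfb3 (-0.033) and Tgfbr3 (-0.24) by spike-ins, Tgfbr2 (-0.020) without wells of any other type, Tgfbr2 (-0.056 without DiD+ cell 37 to 0.47 without DiD- cell 71) and Tgfbr3 (-0.064 without DiD+ cell 69 to 0.38 without DiD- cell 26). Of the genes that kept their sign by spike-ins, Tgfb1 was at -0.60, Smad2 at -0.57, Tgfbr2 at 0.15, Skil at 0.28, Smad7 at 0.31, Smad3 at 0.70 and Tgfbr1 at 0.79. The causes were not tested, except that a larger pseudocount draws ratios toward 0 by construction and another minimum changes the genes in a list. The log2 ratio of Tgfb2 was 0.41 at a pseudocount of 1 CPM and 2.10 at 0.1 CPM. No paired analysis was possible because no test was run and the labels give no number shared between the groups. With 1 sample a group, the spread between mice could not be measured, and genes near 0.0251 CPM cannot be compared.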
